A study of Mus musculus with 20 samples.

Results

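The genes described here run the feedback control of cholesterol in the cell: the sterol regulatory element-binding proteins (SREBPs) encoded by Srebf1 and Srebf2, the proteins that hold, escort, cut or mark them (Scap, Insig1, Insig2, Mbtps1 and Rnf139), and a pair of genes for sterol handling that SREBPs are known to switch on (Stard4 and Tmem97). The members were the probes whose symbol in the platform's probe table is one of these 9 genes. These are 9 of the 19057 gene symbols in that table and 22 of the 45281 probes on the array. Of the 22, 17 were detected on 5 or more of the 20 arrays. Detected means a detection p under 0.05, a p-value for signal above background deposited with each intensity. The filter kept 18285 probes in all. It kept 3 probes each of Insig1, Insig2 and Mbtps1, 2 each of Srebf2 and Rnf139, and 1 each of Srebf1, Scap, Stard4 and Tmem97. The 5 probes left out were 2 of Mbtps1 and 1 each of Srebf1, Scap and Insig1, detected on 0 to 3 arrays. Of the 17, all but the second Rnf139 probe (8 arrays) were detected on all 20 arrays, so no other member entered through 1 high group.

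Liver RNA of male mice was hybridised to Illumina BeadChips, arrays of bead-bound probes read as fluorescence, with 5 arrays in each of 4 groups. The groups were wild-type C57BL/6 and ApoE-/- animals, the second without apolipoprotein E, and each genotype was left untreated or given an antagonist of Toll-like receptors (TLR) 7 and 9, endosomal sensors of nucleic acids. Dosing was intraperitoneal at 15 mg/kg, 3 times a week, from week 6 to week 11, and livers were taken at 14 weeks of age. All mice ate a high fat diet, but not the same one: by weight the formula for wild-type mice contained 35% fat with 0.03% cholesterol, and that for ApoE-/- mice 21% fat with 0.15% cholesterol. Genotype and diet formula therefore cannot be told apart in any comparison of genotypes below. Since the labels do not say whether the 5 arrays of a group are 5 animals, the p-values cover the scatter of these arrays and no more. In whole liver, fewer cells of a type and less RNA per cell cannot be told apart.

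SREBPs are made as membrane proteins of the endoplasmic reticulum (ER) bound to the sterol sensor SCAP. When ER sterol is plentiful, the INSIG proteins hold SCAP in place; when it falls, SCAP carries SREBP to the Golgi, where proteases release a fragment that enters the nucleus and switches on genes of lipid synthesis. SREBP-2, from Srebf2, acts mainly on cholesterol genes and SREBP-1, from Srebf1, on fatty acid genes. Insig1, Stard4, Tmem97 and Srebf2 itself are known SREBP targets, so their mRNA is a common readout of the pathway, while the liver transcript of Insig2 is known in rodents to be lowered by insulin.

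Values are normalised log2 signals: background-corrected, quantile-normalised intensities with 16 added, on a scale where a difference of 1 is 2-fold. Differences were tested with limma over all 18285 probes, with Benjamini-Hochberg adjusted p under 0.05 as the call. Apoe lay between 13.60 and 14.61 on the 10 wild-type arrays and between 5.26 and 6.88 on the 10 ApoE-/- arrays, as the labels require. Between 14436 and 18748 probes were detected per array, and the range differed by group. It was 14436 to 16032 on untreated and 16051 to 18748 on treated wild-type arrays, without overlap. On ApoE-/- arrays it was 15530 to 16660 without treatment and 15816 to 17598 with it. Replicates 1 to 3 of every group carry one form of column name and replicates 4 and 5 another. These are called batch 1 and batch 2, and the labels do not say what set them apart. In batch 2 the untreated ApoE-/- arrays were on a slide of their own. Any batch 2 value that uses this group therefore cannot be told apart from a slide difference. Column names of batch 1 give no slide, so fits with slide as a block took all of batch 1 as 1 block. Hepatocyte markers were at high level in every group: 11 of 12 were measured, and their summed linear signal ran from 187146 to 212083 over the 20 arrays. Macrophage markers differed between the groups. For 14 of 16 measured, the summed signal was 3016 to 4734 in untreated wild-type livers, 15241 to 20904 in treated wild-type livers, 9327 to 11692 in untreated ApoE-/- livers and 13828 to 25072 in treated ApoE-/- livers. Of these 14 markers, 11 rose and 1 fell with the antagonist in wild-type mice, 9 rose in ApoE-/- mice, and 12 were higher in untreated ApoE-/- than in untreated wild-type livers. Markers of other cell types moved too. In wild-type mice the antagonist raised 5 of 7 measured endothelial, 4 of 8 stellate, 5 of 6 T and NK cell and 5 of 6 neutrophil markers, and 2 of 3 erythroid markers, of which the third fell. The median summed signal of these went from 3230 to 4680, from 5662 to 10342, from 155 to 292, from 261 to 759 and from 5676 to 16944, in that order. In ApoE-/- mice 6 of 6 T and NK cell markers rose, with 2 of 7 endothelial, 1 of 8 stellate, 1 of 6 neutrophil and 1 of 3 erythroid markers, while 1 endothelial and 1 erythroid marker fell. No adipocyte marker of 4 passed the detection filter. The part of these markers in the results below was not tested.

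In untreated mice, 4 of the 9 genes were lower in ApoE-/- than in wild-type livers and none was higher. These were Stard4, Insig1, Tmem97 and, by 1 of its 2 probes, Srebf2, each a known SREBP target. Over all tested probes 1.25% were lower and 3.41% higher. The Srebf2 call was lost under equal-median scaling and in either batch alone. In ApoE-/- mice the antagonist raised Stard4, Insig1 and Tmem97, raised Srebf2 by 1 of its 2 probes, and lowered Mbtps1. Over all tested probes 14.2% rose and 14.9% fell in these mice. In wild-type mice the antagonist raised Insig1 (1 of its 3 probes) and Tmem97 and lowered Insig2, Mbtps1 and Scap. Over all tested probes 18.9% rose and 18.4% fell there, so the number of rises was near the background. Each antagonist comparison shares a group with each genotype comparison (the untreated ApoE-/- arrays, for example), so a gene low in that group enters both. In the main fit Srebf1 and Rnf139 passed in none of the comparisons.

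Promoter windows are shown for Insig1, Srebf2 and Tmem97, because these genes were lower together in untreated ApoE-/- livers. Each has an entry in the RefSeq promoter table (build GRCm38.p6). Each window runs 5′ to 3′ from 250 bases before to 50 bases after the start site: Insig1 at chr5:28071162-28071461 on the plus strand, Srebf2 at chr15:82147019-82147318 on the plus strand and Tmem97 at chr11:78550686-78550985 on the minus strand. Capitals mark the CCAAT box (CCAAT, or ATTGG where it is on the opposite strand), the E-box CACGTG and the short core TCACNCC; GC boxes (GGGCGG) are left in lower case.
Insig1: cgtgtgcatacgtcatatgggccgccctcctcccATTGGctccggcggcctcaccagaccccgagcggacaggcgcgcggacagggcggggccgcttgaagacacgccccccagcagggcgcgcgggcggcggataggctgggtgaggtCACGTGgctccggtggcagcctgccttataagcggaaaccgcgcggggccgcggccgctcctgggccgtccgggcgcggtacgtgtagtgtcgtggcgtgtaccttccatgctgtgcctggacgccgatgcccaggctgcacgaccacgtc
Srebf2: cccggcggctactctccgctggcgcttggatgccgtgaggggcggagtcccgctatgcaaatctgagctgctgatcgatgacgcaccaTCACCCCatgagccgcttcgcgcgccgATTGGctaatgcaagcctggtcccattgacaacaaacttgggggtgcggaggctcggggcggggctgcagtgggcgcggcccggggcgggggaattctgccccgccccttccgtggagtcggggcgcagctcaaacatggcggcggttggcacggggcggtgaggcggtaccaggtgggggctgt
Tmem97: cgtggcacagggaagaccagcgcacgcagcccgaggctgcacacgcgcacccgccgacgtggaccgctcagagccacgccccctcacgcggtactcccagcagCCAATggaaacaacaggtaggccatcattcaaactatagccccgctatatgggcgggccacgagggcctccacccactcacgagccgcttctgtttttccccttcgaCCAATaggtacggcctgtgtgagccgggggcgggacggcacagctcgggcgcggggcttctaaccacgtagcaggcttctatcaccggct

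The sterol regulatory element core TCACNCCAC, searched on both strands, was in none of the 12 windows of the 7 members with an entry, and was in 1.24% of 32851 windows over all genes. The Insig1 window held an E-box from -101 to -96 relative to the start site, a motif found in 7.15% of all windows, and a CCAAT box on the opposite strand from -216 to -212. The Srebf2 window held TCACCCC from -162 to -156, a match to the short core that 15.6% of all windows hold; this shorter motif was chosen after the windows had been seen. It also held an opposite-strand CCAAT box from -135 to -131. Tmem97 had CCAAT boxes from -147 to -143 and from -40 to -36; 37.4% of all windows hold at least 1. GC boxes, in 35.7% of all windows, numbered 3 in Insig1, 5 in Srebf2 and 2 in Tmem97. Insig2 windows 1 and 2 also held the short core, and Scap held the E-box in both of its windows. Stard4 and Rnf139 are not described by sequence here.

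Srebf1, the gene of the fatty acid-directed SREBP-1, showed no called difference in any comparison. Its probe (ILMN_2792089) read 7.20, 7.76, 7.43, 7.27 and 7.84 on the untreated wild-type arrays (replicates 1 to 5) and 7.24, 6.47, 7.57, 7.40 and 7.65 on the treated ones. In ApoE-/- livers it read 7.64, 7.94, 7.68, 7.37 and 7.67 without treatment and 7.65, 6.45, 7.21, 7.30 and 7.79 with it. Replicate 2 of each treated group was the low array, and the 4 groups overlapped. The antagonist difference was -0.23 ± 0.23 (SE) in wild-type mice (limma adjusted p = 0.46, 95% interval -0.71 to 0.24) and -0.38 ± 0.23 in ApoE-/- mice (adjusted p = 0.237, interval -0.86 to 0.10). A fall of over 1.5-fold is inside both intervals, so these data do not show that Srebf1 was steady.

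Srebf2, the gene of the cholesterol-directed SREBP-2, was lower in untreated ApoE-/- livers and rose there with the antagonist by its first probe (ILMN_1234082; the second is ILMN_1223598). That probe read 5.79, 5.74, 5.65, 5.78 and 5.96 on the untreated ApoE-/- arrays and 5.98, 6.17, 6.79, 6.21 and 6.28 on the treated ones. In wild-type livers it read 6.30, 6.29, 6.35, 6.17 and 6.40 without treatment and 6.37, 6.78, 6.43, 6.39 and 6.31 with it. The untreated ApoE-/- arrays lay below every array of the other 3 groups, which overlapped one another. The rise in ApoE-/- mice was 0.50 ± 0.13 (SE), or 1.42-fold (adjusted p = 0.00466), and the difference in untreated mice was -0.52 ± 0.13 (adjusted p = 0.0171). In wild-type mice the antagonist difference was 0.15 ± 0.13 (adjusted p = 0.374). Under equal-median scaling that difference was 0.61 (adjusted p = 0.00152) and the second probe's was 0.59 (adjusted p = 0.0333), so whether Srebf2 rose in wild-type mice depended on the scaling. The probe table gives the first probe a sequence record outside RefSeq and the second a RefSeq transcript. Both were dim, with mean intensities of 161.85 and 146.63 before normalisation. In the main fit the second Srebf2 probe passed in none of these comparisons. Its differences were 0.43 ± 0.22 for the antagonist in ApoE-/- mice (adjusted p = 0.16), 0.15 ± 0.22 in wild-type mice (adjusted p = 0.642) and -0.60 ± 0.22 between untreated genotypes (adjusted p = 0.148), each with the sign of the first probe. Within batches the first probe's rise in ApoE-/- mice was 0.59 in batch 1 (adjusted p = 0.0323) and 0.37 in batch 2 (adjusted p = 0.153). The untreated genotype difference of that probe was -0.59 and -0.41 in the batches, and neither passed alone (adjusted p = 0.112 and 0.251). It was also lost when arrays were set to equal medians instead of quantile-normalised.

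Scap, the gene of the sterol-sensing escort protein, fell with the antagonist in wild-type mice. Its probe (ILMN_2764143) read 8.65, 8.69, 8.58, 8.35 and 8.46 without treatment and 8.37, 8.23, 8.28, 7.74 and 7.83 with it. Of the treated arrays 4 lay below all untreated ones, and replicate 1 overlapped by a small margin. The difference was -0.46 ± 0.13 (SE), 1.37-fold lower (adjusted p = 0.00924), and it was -0.35 in batch 1 and -0.62 in batch 2. In ApoE-/- livers it read 8.17, 8.32, 8.31, 8.05 and 7.87 without treatment and 8.20, 8.01, 8.23, 7.82 and 7.91 with it. Those groups overlapped, with a difference of -0.11 ± 0.13 (adjusted p = 0.588, 95% interval -0.39 to 0.16). The gap between the responses of the genotypes was 0.35 ± 0.19 (adjusted p = 0.421), so a difference in response was not shown. The wild-type fall was lost under equal-median scaling, at -0.12.

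Insig1, the gene of the sterol-dependent ER anchor that is itself switched on by SREBPs, was lower in untreated ApoE-/- livers by all 3 probes and rose there with the antagonist by all 3. Probes 1 to 3 are ILMN_2895388, ILMN_2606693 and ILMN_1245272. Probe 1 read 9.05, 9.39, 9.09, 9.56 and 9.96 on the untreated ApoE-/- arrays and 10.27, 10.63, 10.92, 11.17 and 11.18 on the treated ones. Its wild-type arrays read 10.49, 10.49, 11.04, 11.00 and 10.81 without treatment and 11.16, 11.54, 11.57, 11.67 and 11.29 with it. For this probe no treated array overlapped the untreated arrays of its genotype, and the treated ApoE-/- arrays spanned the range of the untreated wild-type ones. The antagonist difference was 1.42 ± 0.19 (SE), or 2.68-fold, in ApoE-/- mice (adjusted p = 1.29e-05) and 0.68 ± 0.19 in wild-type mice (adjusted p = 0.00708). In the batches alone the ApoE-/- rise was 1.43 and 1.41, both called. The wild-type rise was 0.75 and 0.58, below the call in batch 2 (adjusted p = 0.0595), and was also lost when arrays were set to equal medians over the probes detected on all 20 arrays (0.42, adjusted p = 0.117).

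Insig1 probes 2 and 3 gave another picture in wild-type mice. Probe 2 read 8.13, 8.29, 8.14, 8.21 and 7.86 on the untreated wild-type arrays and 8.38, 8.06, 7.96, 7.77 and 7.80 on the treated ones. In ApoE-/- livers it read 6.52, 6.42, 6.30, 6.63 and 6.92 without treatment and 6.62, 6.91, 7.43, 7.09 and 7.50 with it. The wild-type groups of probe 2 overlapped, while 3 of the 5 treated ApoE-/- arrays lay above all untreated ones. Its antagonist difference was -0.13 ± 0.16 in wild-type mice (adjusted p = 0.564) and 0.55 ± 0.16 in ApoE-/- mice (adjusted p = 0.0127), where batch 1 gave 0.57 (adjusted p = 0.0359) and batch 2 gave 0.52 (adjusted p = 0.14). Probe 3 ran from 7.56 to 8.14 on treated and from 7.67 to 8.23 on untreated wild-type arrays, with a median of 7.91 against 8.08. Over the ApoE-/- arrays probe 3 ran from 6.61 to 7.65 with the antagonist and from 6.32 to 6.79 without. Its antagonist differences were -0.16 ± 0.18 (adjusted p = 0.534) and 0.59 ± 0.18 (adjusted p = 0.0165). That last call was lost without treated ApoE-/- replicate 3 (0.51, adjusted p = 0.0517) and in either batch alone.

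The distance from probe 1 to the mean of probes 2 and 3 was therefore examined within each array. It ran from 2.26 to 3.04 on untreated and from 2.91 to 3.97 on treated wild-type arrays, and from 2.56 to 3.11 on untreated and 3.52 to 4.09 on treated ApoE-/- arrays. Its mean was larger with the antagonist by 0.83 in wild-type mice and by 0.85 in ApoE-/- mice. Between genotypes it differed by 0.20 in untreated and 0.23 in treated mice. The probe table gives all 3 probes the same RefSeq transcript, and where each lies in it is not described here. This contrast between probes was chosen after their values had been seen, so it is given as a description, without p-values.

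Between genotypes the Insig1 probes moved together. In untreated mice the ApoE-/- level was lower by all 3 probes, with differences of -1.36 ± 0.19, -1.57 ± 0.16 and -1.54 ± 0.18 (adjusted p = 7.97e-05, 1.23e-06 and 7.44e-06), or 2.56-fold, 2.97-fold and 2.91-fold, and no array of one genotype reached the other. In treated mice the differences were -0.62 ± 0.19 (adjusted p = 0.0716), -0.89 ± 0.16 (adjusted p = 0.00244) and -0.80 ± 0.18 (adjusted p = 0.0126). The first of these passed with the array batch, slide or replicate number as a block (adjusted p = 0.0203, 0.0268 and 0.0145), and without background correction, with offset 50 and in the series matrix values. In batch 1 the 3 treated differences were -0.82, -1.15 and -1.17, and in batch 2 they were -0.31, -0.49 and -0.24, none of them called there (adjusted p = 0.427, 0.219 and 0.655). Probe 3 also lost its call when only the 10 arrays compared were fitted. The excess of the ApoE-/- response over the wild-type response was 0.74 ± 0.27, 0.68 ± 0.23 and 0.75 ± 0.25 for the 3 probes, and none passed the test of the difference (adjusted p = 0.175, 0.136 and 0.144). With the replicate number as a block the first of these passed, at adjusted p = 0.0475.

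Insig2, the gene of the second ER anchor, fell with the antagonist in wild-type mice by all 3 probes, opposite in direction to Insig1 probe 1. Probes 1 to 3 are ILMN_2690256, ILMN_1216822 and ILMN_1234858. Probe 1 read 12.45, 12.04, 12.13, 11.95 and 11.84 without treatment and 11.82, 11.82, 11.17, 10.89 and 10.78 with it. Probe 3 read 7.08, 6.74, 6.53, 6.83 and 6.50 without treatment and 5.55, 5.57, 5.16, 4.81 and 5.18 with it. Wild-type groups did not overlap for any of the 3 probes, although for probe 1 the nearest arrays were 11.82 and 11.84. The differences were -0.79 ± 0.22, -0.91 ± 0.27 and -1.48 ± 0.28 (adjusted p = 0.00728, 0.012 and 0.00029), or 1.72-fold, 1.88-fold and 2.79-fold lower. Probe 3 was near the background on the treated wild-type arrays, at an intensity of 106.96 to 133.16 with detection p up to 0.030. The member probes left out by the filter had mean intensities of 95.56 to 104.94. Over the alternatives the probe 3 difference ran from -1.67 to -0.59 and kept its call, so its fold depended on the processing. Probes 1 and 2 passed in batch 2 (-1.06 and -1.22) but not in batch 1 (-0.60 and -0.71, adjusted p = 0.11 and 0.108), while probe 3 passed in both.

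In ApoE-/- mice the Insig2 differences with the antagonist were -0.18 ± 0.22, -0.46 ± 0.27 and -0.61 ± 0.28 (adjusted p = 0.609, 0.228 and 0.117). Probe 1 read 12.42, 12.48, 12.13, 12.61 and 12.35 on the untreated arrays and 11.40, 12.50, 12.38, 12.58 and 12.25 on the treated ones. Treated replicate 1 stood alone at the bottom, and the other 4 lay within the untreated range. Probe 3 read 6.77, 7.04, 6.64, 7.22 and 6.90 without treatment and 5.06, 6.50, 5.81, 7.14 and 7.03 with it. The treated arrays of probe 3 divided by batch: the 3 of batch 1 were lower than all untreated arrays and the 2 of batch 2 were not. Its difference was -1.03 in batch 1 (adjusted p = 0.0178) and 0.03 in batch 2 (adjusted p = 0.953). The response of ApoE-/- mice exceeded that of wild-type mice by 0.61 ± 0.31, 0.45 ± 0.39 and 0.87 ± 0.40, and none passed (adjusted p = 0.381, 0.68 and 0.314). For probe 3 this difference passed without treated ApoE-/- replicate 1 (1.19, adjusted p = 0.0347) and in batch 2 alone (1.69, adjusted p = 0.0317), against 0.33 in batch 1.

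Untreated genotypes did not differ by a called amount in Insig2, at 0.32, 0.54 and 0.18 for the 3 probes (adjusted p = 0.553, 0.37 and 0.835). Among treated mice the ApoE-/- livers were higher by 0.93 ± 0.22, 0.99 ± 0.27 and 1.05 ± 0.28 (adjusted p = 0.0176, 0.0434 and 0.0354). The groups overlapped through treated ApoE-/- replicate 1 in each probe. These calls were lost in batch 1, at 0.49, 0.33 and 0.36 against 1.58, 1.97 and 2.09 in batch 2, and when only the 10 arrays compared were fitted. They were also lost in some repeats that left out 1 array, 4 of 20 for probe 1, 14 for probe 2 and 6 for probe 3.

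Mbtps1, the gene of the Golgi protease that makes the first cut in SREBPs and also cuts other membrane-bound factors, fell with the antagonist in both genotypes by all 3 probes. Probes 1 to 3 are ILMN_1239494, ILMN_1245330 and ILMN_2748537. Probe 2 read 7.57, 7.19, 7.37, 7.25 and 7.16 on the untreated wild-type arrays and 6.72, 6.40, 6.71, 6.62 and 6.71 on the treated ones. In ApoE-/- livers it read 7.17, 7.12, 7.03, 7.28 and 7.32 without treatment and 6.24, 6.65, 6.48, 6.79 and 6.87 with it. All 10 treated arrays lay below all 10 untreated arrays. Its differences were -0.67 ± 0.12 in wild-type mice (adjusted p = 0.00012) and -0.58 ± 0.12 in ApoE-/- mice (adjusted p = 0.000835), 1.60-fold and 1.49-fold lower. Probes 1 and 3 gave -0.68 ± 0.15 and -0.58 ± 0.12 in wild-type mice (adjusted p = 0.00134 and 0.00072), and -0.65 ± 0.15 and -0.55 ± 0.12 in ApoE-/- mice (adjusted p = 0.00271 and 0.00168). The groups did not overlap in these either, apart from probe 1 in ApoE-/- mice, where treated replicate 5 at 7.91 lay above the lowest untreated array at 7.87. The responses of the genotypes differed by 0.03, 0.10 and 0.03, with 95% intervals of -0.42 to 0.48, -0.25 to 0.44 and -0.33 to 0.39. No genotype contrast of Mbtps1 passed. All 3 wild-type falls lost their calls under equal-median scaling, at -0.29, -0.25 and -0.14, and all 3 ApoE-/- falls did so in batch 2 alone, at -0.45, -0.47 and -0.40.

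Rnf139 is the gene of an ER ubiquitin ligase that binds INSIG proteins and takes part in the degradation of the rate-limiting enzyme of cholesterol synthesis. It showed no called difference in the main fit. Over the 20 arrays probe 1 (ILMN_2690968) lay between 5.65 and 6.50, and the group medians were 6.19 (wild type, no treatment), 5.90 (wild type, antagonist), 6.24 (ApoE-/-, no treatment) and 6.05 (ApoE-/-, antagonist). All 4 groups of this probe overlapped. Its antagonist differences were -0.05 ± 0.15 (adjusted p = 0.819, 95% interval -0.37 to 0.26) and -0.19 ± 0.15 (adjusted p = 0.41, interval -0.50 to 0.13). Probe 2 (ILMN_2604560), detected on 8 of 20 arrays, lay between 4.35 and 5.38, and its antagonist differences were -0.20 ± 0.20 (adjusted p = 0.464) and 0.03 ± 0.20 (adjusted p = 0.945). With equal medians over the probes detected on all 20 arrays, its wild-type difference was -0.48 and passed (adjusted p = 0.0305).

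**Figure D1:**
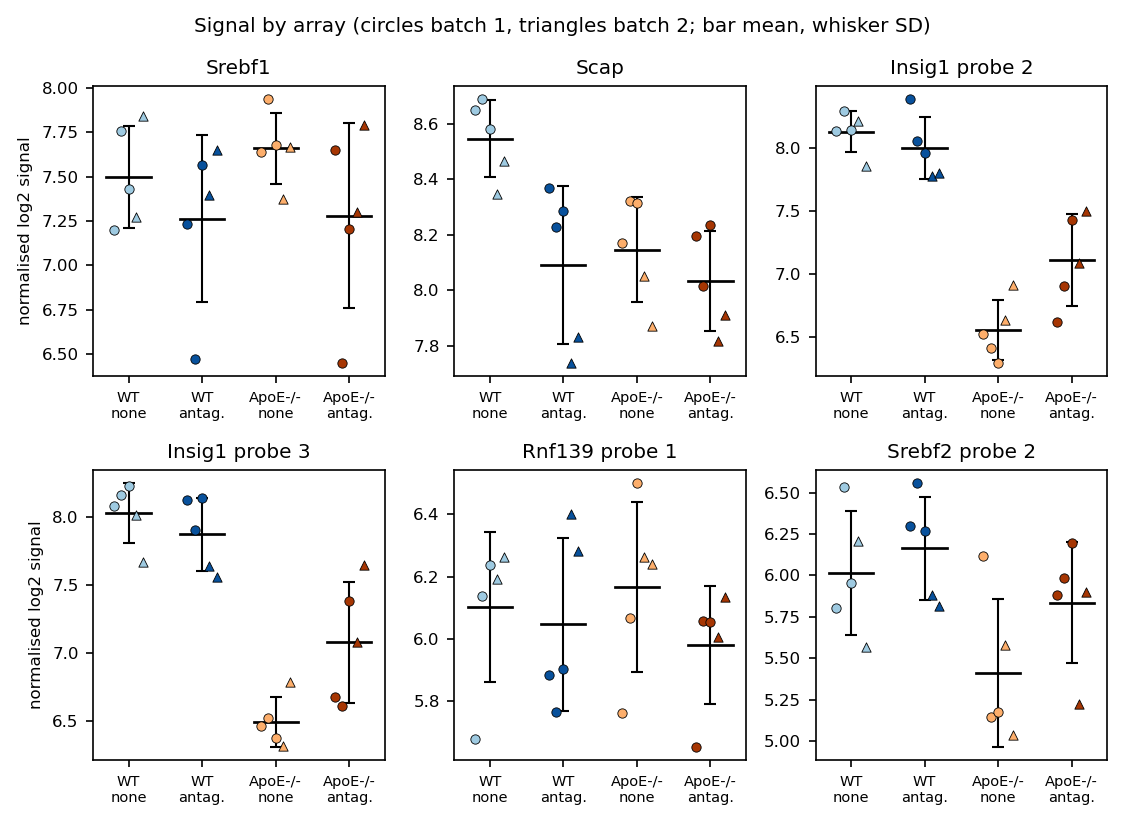
Normalised log2 signal of 6 probes on each of 20 arrays, by group (WT, wild type; antag., antagonist); circles are batch 1, triangles batch 2, bars the group mean and whiskers the SD (n = 5), and axes differ between panels and do not start at 0. Insig1 probes 2 and 3 overlapped between the wild-type groups and were lower on all untreated ApoE-/- arrays, from 6.30 to 6.92 for probe 2, than on any wild-type array, while Srebf1 and Rnf139 overlapped in all 4 groups.

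Stard4, the gene of a cytosolic carrier that moves sterol between membranes, was the member with the largest genotype difference among the 17 probes and rose with the antagonist in ApoE-/- mice. Its probe (ILMN_1240445) read 7.53, 7.46, 7.64, 8.02 and 8.15 on the untreated ApoE-/- arrays and 8.83, 8.72, 9.36, 8.54 and 8.45 on the treated ones. The wild-type arrays read 9.55, 9.51, 9.79, 9.75 and 9.90 without treatment and 9.80, 9.95, 9.999, 9.58 and 9.96 with it. The order was untreated ApoE-/- lowest, treated ApoE-/- next with no overlap, and both wild-type groups above every ApoE-/- array, overlapping each other. Between untreated genotypes the difference was -1.94 ± 0.16 (SE), 3.84-fold lower in ApoE-/- mice (adjusted p = 7.92e-08), and between treated ones it was -1.08 ± 0.16, 2.11-fold (adjusted p = 0.000388). Those held in both batches, at -2.08 and -1.74 for the untreated and -0.94 and -1.27 for the treated comparison.

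The Stard4 rise in ApoE-/- mice was 1.02 ± 0.16, or 2.03-fold (adjusted p = 7.63e-05), against 0.16 ± 0.16 in wild-type mice (adjusted p = 0.489, 95% interval -0.18 to 0.49). It was the one member whose responses differed between genotypes, by 0.87 ± 0.23 (adjusted p = 0.0486, 95% interval 0.39 to 1.34). The size of the rise was not the same in the batches. It was 1.43 in batch 1 (adjusted p = 4.68e-05) and 0.41 in batch 2 (adjusted p = 0.162), and the difference between genotypes was 1.13 (adjusted p = 0.0408) and 0.47 (adjusted p = 0.343). In batch 2 the untreated ApoE-/- arrays, which were on a slide of their own, read higher than in batch 1 and the treated ones lower than in batch 1. The difference between genotypes also missed the threshold in 16 of 20 repeats that left out 1 array, where it ran from 0.72 to 0.96.

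Tmem97, the gene of a sterol-responsive membrane protein that in cultured cells binds the lysosomal cholesterol exporter NPC1, rose with the antagonist in both genotypes and was lower in ApoE-/- livers. Its probe (ILMN_2656871) read 10.50, 10.67, 10.70, 10.57 and 10.53 on the untreated wild-type arrays and 10.90, 10.93, 11.10, 11.21 and 10.87 on the treated ones. In ApoE-/- livers it read 9.91, 9.98, 9.79, 10.20 and 10.03 without treatment and 10.55, 10.22, 10.88, 10.17 and 10.32 with it. The wild-type groups did not overlap, and 4 of the 5 treated ApoE-/- arrays lay above all untreated ones. The rise was 0.41 ± 0.12 in wild-type mice (adjusted p = 0.0118) and 0.45 ± 0.12 in ApoE-/- mice (adjusted p = 0.00863), 1.33-fold and 1.36-fold, and these differed by 0.04 (95% interval -0.32 to 0.40, adjusted p = 0.955). The ApoE-/- minus wild-type difference was -0.61 ± 0.12 without treatment (adjusted p = 0.00338) and -0.57 ± 0.12 with it (adjusted p = 0.00881). The first was lost in batch 2 alone (-0.44, adjusted p = 0.263), and the second in batch 1 alone (-0.43, adjusted p = 0.23) and when only the 10 arrays compared were fitted (adjusted p = 0.0585). The wild-type rise passed in neither batch alone, at 0.35 and 0.49 (adjusted p = 0.11 and 0.0571), and not with equal medians over the probes detected on all arrays (0.18). In ApoE-/- mice it was 0.66 in batch 1 (adjusted p = 0.00733) and 0.13 in batch 2 (adjusted p = 0.651).

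**Figure D2:**
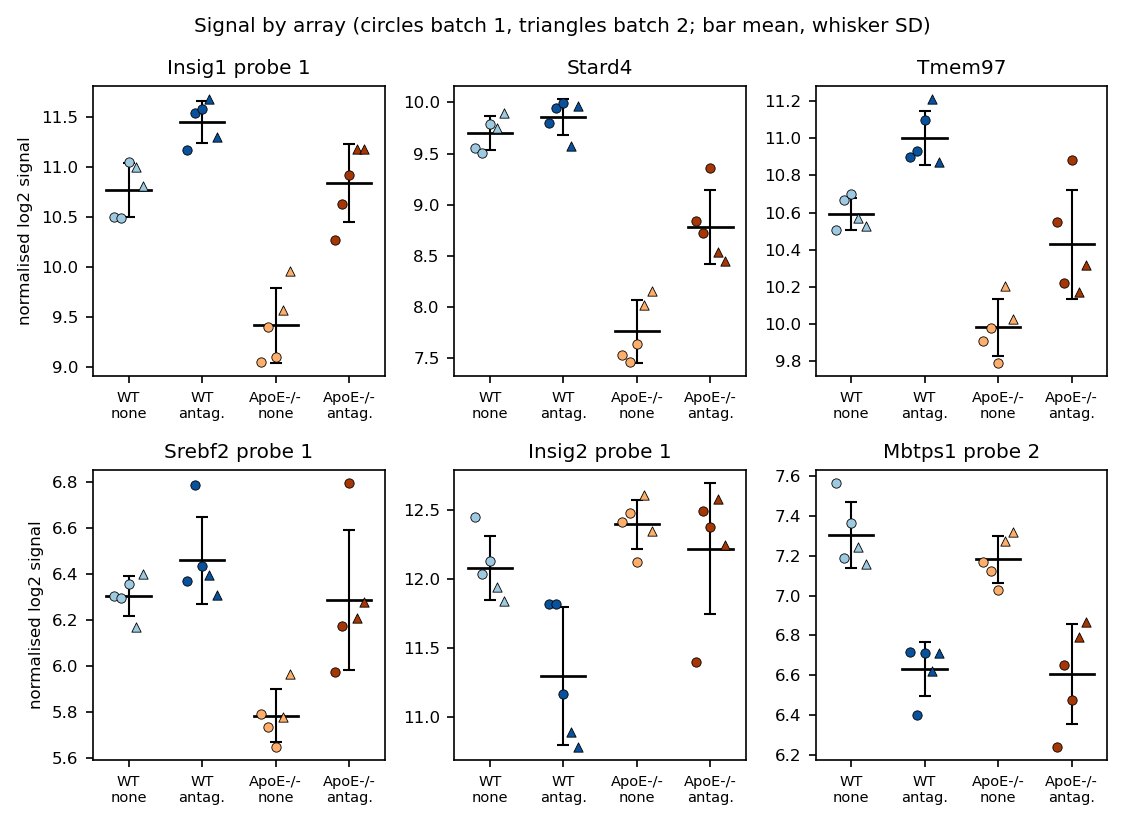
Normalised log2 signal of 6 probes on each of 20 arrays, by group (WT, wild type; antag., antagonist); circles are batch 1, triangles batch 2, bars the group mean and whiskers the SD (n = 5), and axes differ between panels and do not start at 0. Untreated ApoE-/- arrays were the lowest group for Insig1 probe 1, Stard4, Tmem97 and Srebf2 probe 1, treated wild-type arrays were lowest for Insig2 probe 1, and for Mbtps1 probe 2 all 10 treated arrays lay below all 10 untreated ones.

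Counted by probe, 2 of the 17 member probes rose and 7 fell with the antagonist in wild-type mice, where 18.9% of all tested probes rose and 18.4% fell. Probes of a gene share its transcript, and the 7 falls came from 3 genes: Insig2 and Mbtps1 gave 3 each and Scap 1. In ApoE-/- mice 6 rose and 3 fell, where 14.2% of all probes rose and 14.9% fell. The 6 rises were the 3 Insig1 probes, Srebf2 probe 1, Stard4 and Tmem97, and the 3 falls were all of Mbtps1. Beside these shares, the 2 rises in wild-type mice and the 3 falls in ApoE-/- mice are near the background and are no result about the members. The median difference of the 17 probes was -0.20 in wild-type mice, against -0.03 over all tested probes, and -0.11 in ApoE-/- mice, against -0.02. Counted by gene, 2 rose, 3 fell and 4 did not pass in wild-type mice, and 4 rose, 1 fell and 4 did not pass in ApoE-/- mice. The background shares are by probe, and no share by gene was taken.

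**Figure D3:**
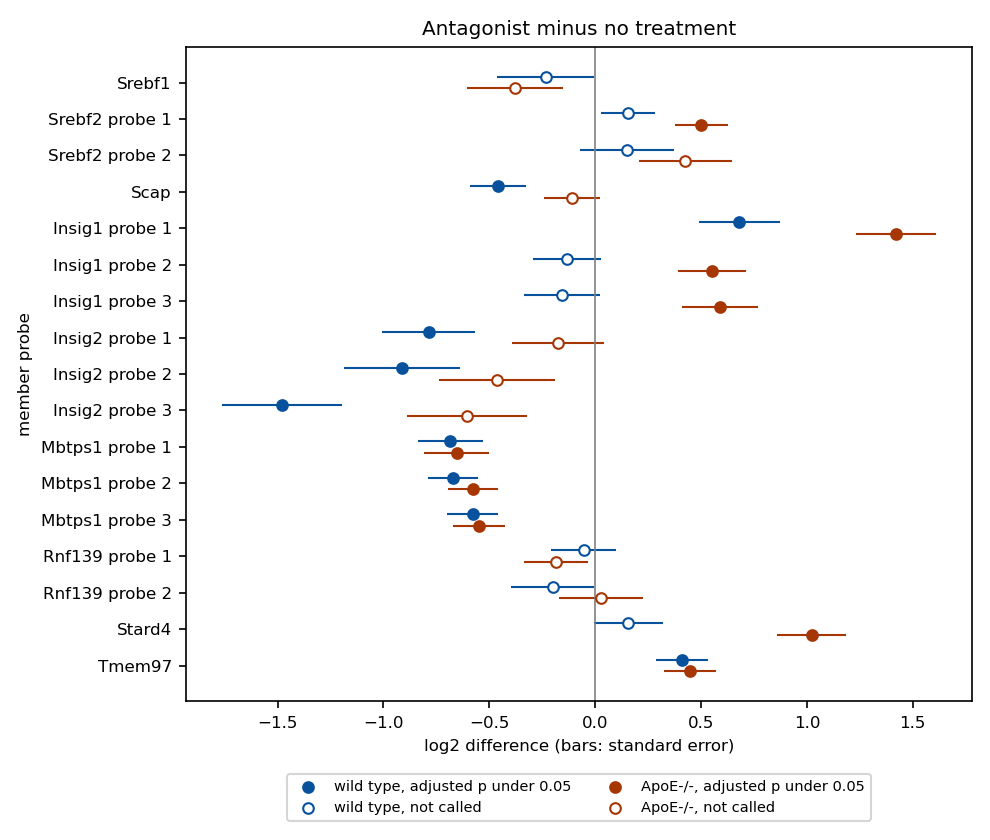
Antagonist minus no treatment for the 17 member probes, as log2 differences with their standard errors from limma (5 arrays a group); blue is wild type, brown is ApoE-/-, and filled points have an adjusted p under 0.05. Stard4 and all 3 Insig1 probes lie further right in ApoE-/- mice (1.02 against 0.16 for Stard4), the Mbtps1 pairs lie close together to the left of 0, and the filled Insig2 points are wild type alone.

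For the difference between the responses, Stard4 alone of the 17 probes passed, where 0.76% of all probes had a larger and 1.57% a smaller value in ApoE-/- mice. The median of the members was 0.35, against -0.02 over all probes. Between untreated genotypes 6 of the 17 probes were lower in ApoE-/- livers and 0 higher, where 1.25% of all probes were lower and 3.41% higher. Scap was not called, although its untreated ApoE-/- arrays all lay below the untreated wild-type ones, at -0.40 ± 0.13 (adjusted p = 0.098). This Scap difference passed with the array batch as a block (adjusted p = 0.00361), with slide as a random block (adjusted p = 0.0196) and with the replicate number as a block (adjusted p = 0.00765). Between treated genotypes 4 probes were lower (2 of Insig1, Stard4 and Tmem97) and 3 higher (all of Insig2), where 1.84% of all probes were lower and 2.56% higher. Medians of the members were -0.22 and -0.07 in these comparisons, against -0.01 and -0.02 over all probes.

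**Figure D4:**
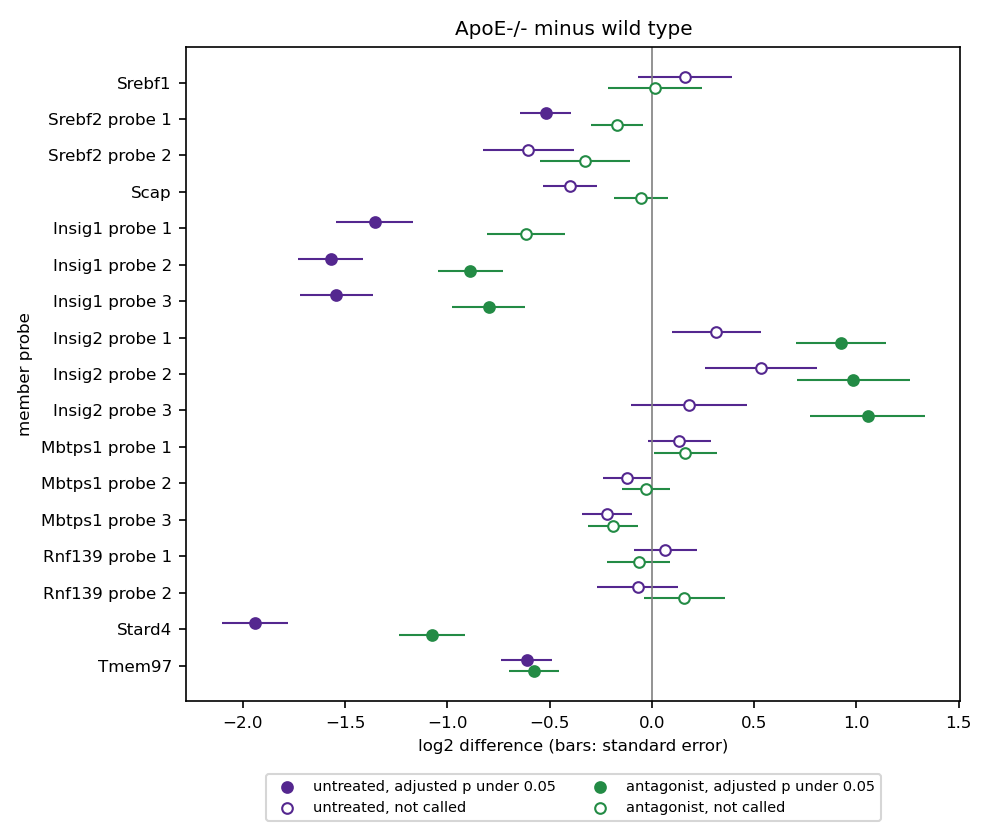
ApoE-/- minus wild type for the 17 member probes, as log2 differences with their standard errors from limma (5 arrays a group); purple is untreated mice, green is antagonist-treated mice, and filled points have an adjusted p under 0.05. Stard4 (-1.94 and -1.08) and Insig1 lie far to the left in untreated mice and nearer to 0 in treated mice, and the 3 Insig2 points are filled for treated mice alone.

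**Figure D5:**
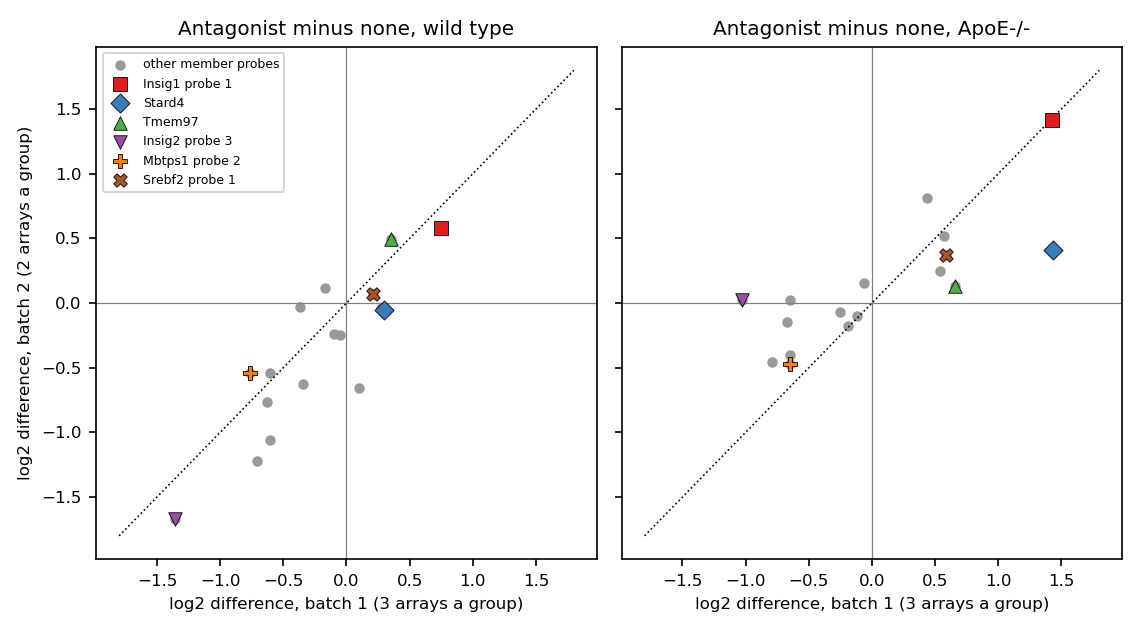
Antagonist minus no treatment for the 17 member probes in batch 1 (3 arrays a group, horizontal) against batch 2 (2 arrays a group, vertical), as log2 differences; the dotted line marks equal values and 6 probes are picked out by colour and shape. In ApoE-/- mice Insig1 probe 1 lies on the line (1.43 and 1.41), while Stard4 (1.43 and 0.41) and Insig2 probe 3 (-1.03 and 0.03) lie far from it. The batch 2 untreated ApoE-/- arrays were on a slide of their own.

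The enzymes of cholesterol synthesis, which SREBP-2 is known to switch on, gave a reference for these genes. Beside each list below, 18.9% of all tested probes rose and 18.4% fell with the antagonist in wild-type mice. In ApoE-/- mice these shares were 14.2% and 14.9%. List counts near these shares are no result about the list. All list counts come from the main fit and were not repeated under other scalings. Of a list of 22 genes of synthesis and uptake 14 were measured, all of them synthesis enzymes; 10 rose and 0 fell with the antagonist in wild-type mice (median 0.86), and 11 rose and 0 fell in ApoE-/- mice (median 1.07). Among them Fdps, farnesyl diphosphate synthase, rose by 1.36 ± 0.25 and 2.36 ± 0.25 (adjusted p = 0.00018 and 1.19e-06), and Msmo1, a sterol methyl oxidase, by 1.11 ± 0.20 and 2.10 ± 0.20 (adjusted p = 0.000133 and 3.28e-07). Between untreated genotypes 13 of the 14 were lower in ApoE-/- livers (median -1.64), and 11 were lower between treated ones (median -1.57). Over all tested probes 1.25% and 1.84% were lower in these comparisons. None passed the test of the difference in response, whose median was 0.47, beside the 1 call of Stard4 among the members. Fatty acid genes under SREBP-1 did not move one way: of 14 measured of 16, 4 rose and 6 fell in wild-type mice (median -0.48), and 4 rose and 3 fell in ApoE-/- mice (median 0.32), and Srebf1 itself showed no call. In wild-type mice Acly, ATP citrate lyase, rose by 0.66 ± 0.10 (adjusted p = 3.22e-05), while Me1, malic enzyme, fell by 1.90 (adjusted p = 1.28e-07).

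Other genes for the transport, processing and breakdown of SREBP pathway proteins were called lower more often than higher with the antagonist. Of all tested probes 18.4% fell in wild-type and 14.9% in ApoE-/- mice, and 18.9% and 14.2% rose. Of 19 such genes 15 were measured. In wild-type mice 0 rose and 7 fell (median -0.24), and 1 rose and 5 fell in ApoE-/- mice (median -0.15). Whether these falls hold under equal-median scaling was not tested. That scaling shifted the median of all probes by 0.25 in wild-type mice. Sec23a, a subunit of the coat that buds vesicles from the ER, fell by 1.44 and 1.12 (adjusted p = 3.36e-07 and 2.07e-05), and Marchf6, an ER ubiquitin ligase, fell by 1.10 and 0.74 (adjusted p = 3.45e-08 and 1.62e-05). Marchf6 was the 1 gene of these that differed between untreated genotypes, at -0.38 ± 0.10 (adjusted p = 0.0274). Of 15 measured sterol transport genes of 17, 4 rose and 4 fell in wild-type mice and 2 rose and 3 fell in ApoE-/- mice, in no common direction. Abcg1, a sterol exporter, rose by 2.11 ± 0.21 in wild-type mice (adjusted p = 7.88e-08) and 1.13 ± 0.21 in ApoE-/- mice (adjusted p = 0.000285), while Scp2, a peroxisomal sterol carrier, fell by 0.65 and 0.68 (adjusted p = 8.24e-06 and 1.25e-05). Abcg1 is also abundant in macrophages, whose markers rose with it; their part in its rise was not tested.

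Genes of the liver X receptors, sterol-activated nuclear receptors that also act on Srebf1, were measured for 7 of 11. In wild-type mice 2 rose and 4 fell, and in ApoE-/- mice 1 rose and 1 fell. Nr1h3, the receptor LXR alpha, rose by 0.74 ± 0.12 and 0.48 ± 0.12 (adjusted p = 3.45e-05 and 0.00319). Lpcat3 fell in both genotypes, with differences of -0.76 ± 0.13 and -0.69 ± 0.13 (adjusted p = 8.47e-05 and 0.000396). Of 12 measured insulin signalling genes of 14, 0 rose and 5 fell in wild-type mice, and 0 rose and 3 fell in ApoE-/- mice. Beside both lists, 18.9% of all tested probes rose and 18.4% fell in wild-type mice, against 14.2% and 14.9% in ApoE-/- mice. G6pc, the catalytic subunit of glucose-6-phosphatase, fell by 2.28 in wild-type mice (adjusted p = 1.67e-08), and its response differed between genotypes by 1.98 ± 0.28 (adjusted p = 0.000718).

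The genes whose centred profiles over the 20 arrays lay nearest to each member are given by their root mean square distance in log2 units, a description in which group differences, batches and scaling are all shared. Nearest to Stard4, whose own SD over the arrays was 0.89, were Nsdhl, a cholesterol synthesis enzyme (0.38), Insig1 by its probe 2 (0.38) and Mmab (0.40). Nearest to Insig1 probe 1 (SD 0.82) were Avpr1a (0.40), Acsl3 (0.40) and Aldoc (0.41). Tmem97 (SD 0.41) had Rasgrp4 (0.21), Acss2, a cytosolic acetyl-CoA synthetase (0.21), and Prodh2 (0.23). Insig2 (SD 0.55) had Fgd6 (0.28), Cyp8b1, a bile acid synthesis enzyme (0.30), and Gde1 (0.30), and Mbtps1 (SD 0.42) had Zfand6 (0.14), Cat, catalase (0.15), and Wapl (0.17). Srebf2 (SD 0.31) had Srsf2 (0.18), Bmp1 (0.18) and Fetub (0.20), and Scap (SD 0.28) had Oxnad1 (0.11), Tst (0.11) and Cpped1 (0.13).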

How the data were processed

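Mouse liver RNA was hybridised to 20 Illumina BeadChip arrays, 5 arrays in each of 4 groups taken from the labels. The deposited table gives for each probe and array an intensity on a linear scale and a detection p-value; the submitters' processing notes name GenomeStudio and BeadStudio without version or role. As its values show, the authors had scaled the arrays within 4 sets of genotype and batch before deposit (array means of 326.99, 399.38, 341.05 and 358.13), a step the sources used here do not describe, so scaling set, diet and genotype cannot be told apart. The deposited series matrix holds intensity values of the same arrays, in the same rank order (Spearman 1), with column medians of 103.60 to 103.62 and no centring of genes; its normalization is unknown and it served as an alternative.

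Probe symbols came from GEO's platform annotation and were brought up to date through RefSeq (GRCm38.p6): 34885 had 1 symbol, 18 several and 10378 none. In R 4.3.3 with limma 3.58.1, neqc was applied (normexp, quantile normalization, offset 16). The filter kept probes detected (p under 0.05) on 5 or more of the 20 arrays. One limma model with 4 group means used every array, with empirical Bayes moderation and adjustment by Benjamini-Hochberg over 18285 probes. Folds are 2 to the power of log2 differences. The precision is limited by 5 arrays a group. The procedure was tested on simulated data. No 2 arrays were near-identical (highest correlation 0.9935).

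The members, gene lists, markers and tests were chosen with earlier results of these data known. Genes named are the members, up to 3 genes per list and contrast with the smallest adjusted p among those past the threshold (part of these is left out), the 3 nearest profiles, and Apoe. Each list gene was taken by its brightest probe. Alternatives covered scaling, background correction, offset, the series matrix, filters, 1 probe per gene, batch, slide, replicate block, the 10 arrays of a contrast alone and leaving out each array; equal medians over probes detected on all 20 arrays and the short core motif were chosen after seeing the data.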

Additional observations from a re-analysis of the deposited data

Results flagged for a closer look

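Of 68 sets of 5 arrays (17 probes in 4 groups), 4 held an array that stood apart by Dixon's criterion, where chance gives about 1 in 20. Srebf2 probe 1 read 6.78 on treated wild-type replicate 2, and its other arrays read 6.31 to 6.43. Insig2 probe 1 read 11.4 on treated ApoE-/- replicate 1, with the other arrays at 12.25 to 12.58. Rnf139 probe 1 read 5.68 on untreated wild-type replicate 1, against 6.14 to 6.26 on the others. On treated ApoE-/- replicate 1 Rnf139 probe 1 read 5.65, against 6.01 to 6.14. The Stard4 response to the antagonist was larger in ApoE-/- than in wild-type mice by 0.87 (limma, adjusted p = 0.0486), with 5 of 5 treated ApoE-/- arrays above all untreated ones.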

How the results depend on the processing

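Of the alternative values of single member probes, 2721 kept their side of the threshold, 85 lost a call, 22 gained one and no called value changed sign. The number of member probes called was 9, 9, 1, 6 and 7 for the antagonist in wild-type mice, in ApoE-/- mice, the difference between these, and the genotypes without and with treatment. For the difference, 0 passed under equal medians, without background correction, in the series matrix values and without the detection filter. With 1 probe per gene, 5, 5 and 3 of 9 genes passed in both antagonist contrasts and between treated genotypes. No share over all genes was taken for that fit, so these counts have no background beside them. Batch 1 alone gave 3 between treated genotypes, and batch 2 alone gave 1 for the antagonist in ApoE-/- mice (Insig1 probe 1) and 3 between untreated genotypes. Fitting only the 10 arrays compared gave 2 between treated genotypes. Leaving out each array in turn gave 9 to 9, 8 to 10, 0 to 2, 6 to 7 and 4 to 7 calls. With the replicate number as a block the counts were 9, 9, 2, 7 and 8. Of the 30 correlations between same-numbered arrays 27 were over 0.1 (range -0.002 to 0.47), and 15 of 20 arrays correlated best with their own number, a hint of shared structure from the data and not from the design; the numbers were not taken as pairs because not every correlation was over 0.1 and the labels name no shared litter, batch or day. With slide as a random block (correlation 0.20) the counts were 9, 9, 1, 7 and 8. In that fit all of batch 1 was 1 block, because only the batch 2 column names give a slide.

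Scaling moved the wild-type antagonist contrast most. Equal medians shifted the median of all probes by 0.25 there, by 0.08 in ApoE-/- mice, by -0.18 for the difference and by -0.11 between treated genotypes. The share of calls that were rises went from 50.6% to 85.5%, from 48.7% to 66%, from 32.6% to 6.33%, from 73.2% to 85.2% between untreated genotypes and from 58.2% to 27.7% between treated ones. Member calls in wild-type mice became 4 up and 3 down: both Srebf2 probes rose (0.61 and 0.59), and Scap and Mbtps1 lost their calls. Of all 18285 tested probes 6283 rose under that scaling, so the 4 member rises are no result about the members. With medians over probes detected on all 20 arrays the shift was -0.11 and rises were 39.8% of calls. Of the 18285 tested probes 7446 were called there, 2960 of them rises. Among the members 0 rose and 8 fell, with Insig1 probe 1 at 0.42 and Tmem97 at 0.18 below the call. Fits within 1 batch have 3 or 2 arrays a group, which limits what they can call. The causes were not tested.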
